A study of Arabidopsis thaliana with 4 samples.

Results

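The genes described here are the 42 nuclear genes of Arabidopsis thaliana that encode the light-harvesting proteins LHCA1 to LHCA6 and LHCB1 to LHCB7, the nuclear subunits of photosystem I from PSAD to PSAO, and the nuclear photosystem II subunits PSBO, PSBP, PSBQ, PSBR, PSBW, PSBX and PSBY. They were chosen by name and not by a cut on their values, from 23049 genes with at least 1 read in the series. Earlier results of these data were known when the genes were chosen. They fall into 6 photosystem I antenna genes, 9 major and 6 minor antenna genes of photosystem II, 12 photosystem I subunit genes, 6 genes of the oxygen-evolving side of photosystem II and 3 genes of its small subunits.

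RNA was sequenced from leaves of 2-week-old plants grown on soil in long days, in 4 libraries with 1 library per group. By label, the libraries are wild-type Col-0 kept at 20 °C, sme1-1 in the Col-0 background kept at 20 °C, Col-0 exposed to 4 °C for 24 h, and sme1-1 exposed to 4 °C for 24 h. By label, plants grew under 90 µmol m-2 s-1 of light and were chilled under 40 µmol m-2 s-1, so the effects of light and of temperature cannot be told apart. The series asks what SME1, a core protein of the spliceosome's Sm ring, does in development and in the cold. Below, lists of 4 values give the pair labelled 20 °C first (Col-0, then sme1-1) and the pair labelled 4 °C next (Col-0, then sme1-1).

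The gene that the mutation is named after went against the labels. SME1 (AT2G18740) was at 14.7, 27.8, 0.679 and 0.919 reads per M reads (CPM), so that the low values were in both libraries labelled 4 °C and not in both labelled sme1-1. Its paralog SME2 (AT4G30330) was at 10.2, 11.6, 10.2 and 9.59 CPM. Genes known for strong induction by cold stood high in both libraries labelled sme1-1 and low in both labelled Col-0. COR15A was at 25.9, 5092, 30.1 and 6272 CPM, KIN1 at 0.852, 428, 1.72 and 974 CPM, and RD29A at 43.4, 2422, 36.6 and 3963 CPM. Every group name below is therefore a label, and each direction is a direction between labels, not a shown effect of genotype or of cold.

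The libraries held 44.6 to 47.2 M counted reads, and all 42 genes were read in every library. Together they took 13.4%, 11.9%, 14.5% and 11.9% of the reads, and 5 of the 10 most read genes in each library were among them. RHD6 of root hairs had no read, and the floral genes AP1, AP3, PI and AG were each below 1 CPM in every library. The 11 marker genes of other cell types and organs summed to 336 to 393 CPM, with 9 to 10 of them read in a library. SUC2 of phloem companion cells was at 62.6, 117, 69.1 and 156 CPM and PYK10, best known from roots and seedlings, at 168, 70.9, 191 and 90.4 CPM. Both differed between the same libraries as many photosystem genes, in opposite directions, and their part in the results below was not tested. FAMA and AT1G22690 of guard cells, ATML1 of epidermis and IRX3 of xylem were not called by genotype label in the model below. Their log2 differences were 0.18, -0.03, -0.16 and 0.21. In bulk leaf RNA, fewer cells of a type and less RNA per cell cannot be told apart.

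In chloroplasts, light is absorbed by antenna proteins that bind chlorophylls and carotenoids and pass the energy to the reaction centres of photosystem II and photosystem I. Photosystem II draws electrons from water at a manganese cluster shielded by the extrinsic proteins PSBO, PSBP and PSBQ, and photosystem I hands electrons to ferredoxin on the stromal side. The reaction centre proteins are encoded in the plastid genome, while the antenna and many peripheral subunits are encoded in the nucleus and imported.

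The libraries were compared in a model with 1 term for the genotype label and 1 for the temperature label, fitted to the 17218 genes that averaged 1 CPM or more (all 42 included). With 1 residual degree of freedom, its spread is the departure of the 4 libraries from additivity, shared over genes, and not a spread between repeated samples. By the genotype label, 20 of the 42 genes (47.6%) were lower in the sme1-1 libraries and 1 (2.38%) was higher at an adjusted p below 0.05 (edgeR's quasi-likelihood test, Benjamini-Hochberg adjustment over all genes). Over all 17218 genes, 17.8% were lower and 24.2% higher. The median log2 difference was -0.43 for the 42 genes and 0.06 for all genes. By the temperature label, 0 of the 42 genes were higher and 0 lower, where 0.918% and 1.13% of all genes were. At an unadjusted p below 0.05, 4 of the 42 genes differed by the temperature label in edgeR and 5 in DESeq2. All genes were not counted at that threshold, so these counts have no background share and cannot be set against the shares above.

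Read off without a model, 28 of the 42 genes (66.7%) were lower in both libraries labelled sme1-1 than in both labelled Col-0, against 30.7% of all genes. Only LHCB1.1 and LHCB1.2 (4.76%) were higher in both, against 37.9% of all genes. By the temperature label, 9 of the 42 (21.4%) were higher in both 4 °C libraries, against 10% of all genes, and 0 were lower in both, against 11.1%. The libraries in which the 28 genes were low are those in which COR15A, KIN1 and RD29A were high. Since SME1 went against the labels, genotype and cold cannot be told apart in this contrast.

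**Figure D1:**
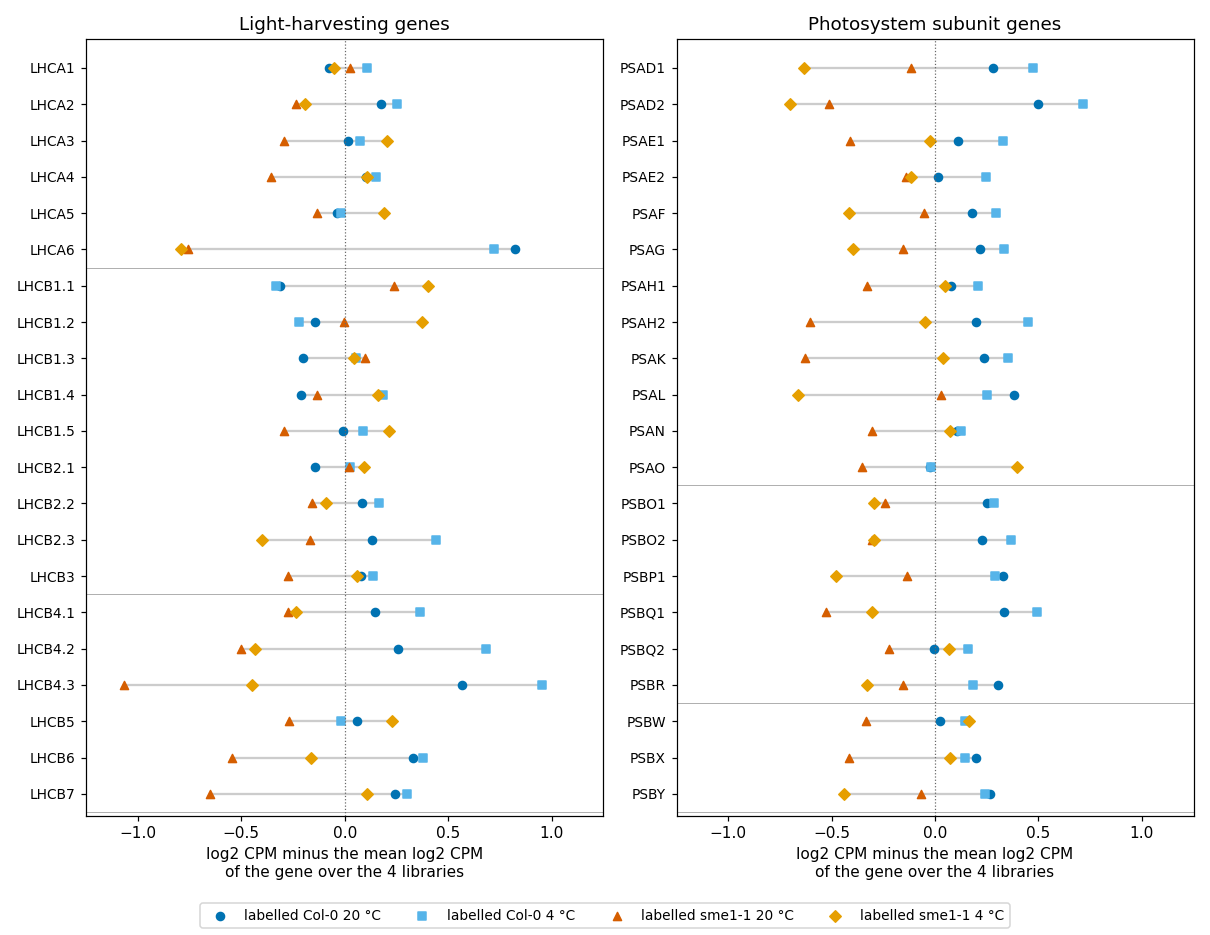
Level of each of the 42 genes in the 4 labelled libraries, as log2 CPM minus the gene's mean log2 CPM, with light-harvesting genes on the left and photosystem subunit genes on the right; each point is 1 library and the grey line spans the 4. Both sme1-1 points lie left of both Col-0 points in 28 genes, and right of them in LHCB1.1 and LHCB1.2.

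Of the 42 genes, 3 stood 2-fold or more below Col-0 between the 20 °C labels and 0 stood 2-fold or more above it, where 7.13% and 9.10% of all genes were. They were LHCA6, LHCB4.3 and PSAD2. Between the 4 °C labels, 5 genes were at least 2-fold lower and 0 higher, where 7.85% and 11.8% of all genes were. They were the same 3 genes and LHCB4.2 and PSAD1. At 20 °C, steps down of 2-fold were thus about as frequent among the 42 genes as among all genes, and steps up were not seen. Smaller steps down were widespread, since 36 of 42 genes were below a ratio of 1 at 20 °C and 33 of 42 at 4 °C. Of all 17218 genes, 8303 were below it at 20 °C and 7717 at 4 °C. The median log2 ratio was -0.38 at 20 °C (0.03 for all genes) and -0.33 at 4 °C (0.09 for all genes). Other scaling factors moved the median of all genes at 4 °C by -0.10. Such factors move every ratio of a pair alike, so the median of the 42 genes minus that of all genes is -0.43 under each by construction. These pairs of libraries have no replicate check, and the intervals given below (95%, exact, from both counts) cover counting error only.

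**Figure D2:**
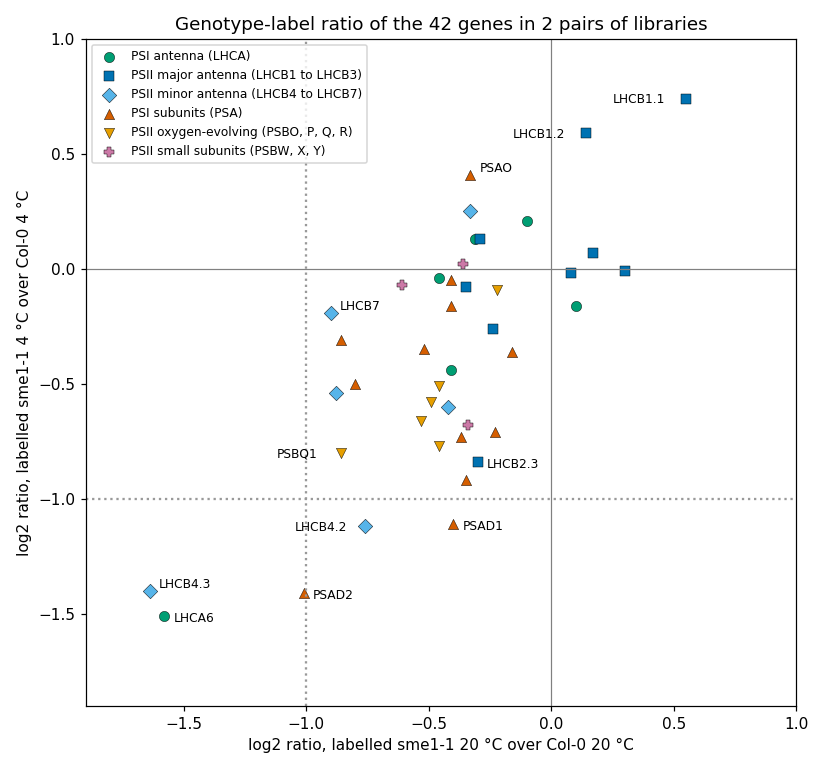
Log2 ratio of CPM between the libraries labelled sme1-1 and Col-0 at 20 °C (x axis) and at 4 °C (y axis) for the 42 genes, coloured by complex; solid lines mark no difference and dotted lines a 2-fold lower level. LHCA6 and LHCB4.3 lie lowest on both axes, PSAD2 lies past both dotted lines, and LHCB1.1 lies highest on both.

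In the antenna of photosystem I, 1 of 6 genes passed the test and it was lower in the libraries labelled sme1-1, a count near the 17.8% of all genes that were lower. That gene was LHCA6, whose protein, with LHCA5, links photosystem I to the chloroplast NDH complex rather than forming the main antenna belt. It was at 101, 33.8, 94.2 and 33.0 CPM. The sme1-1 libraries were close to each other and lay far below both Col-0 libraries, at 0.335 of the Col-0 level at 20 °C (0.316 to 0.355) and 0.350 at 4 °C (0.330 to 0.371). Its log2 difference by genotype label was -1.55 ± 0.16 (SE; Benjamini-Hochberg adjusted p = 1.15e-06 in edgeR's quasi-likelihood test).

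LHCA5, its partner in that link, was at 75.3, 70.3, 76.3 and 88.0 CPM, and its sme1-1 libraries lay on either side of the Col-0 ones. The 4 belt genes LHCA1 to LHCA4 were read more deeply, from 1473 to 4545 CPM. LHCA2 was at 3499.7, 2638, 3692 and 2719 CPM, lower in both libraries labelled sme1-1. Its log2 difference of -0.42 ± 0.17 missed the threshold in edgeR's quasi-likelihood test (adjusted p = 0.0557), passed it with TMM factors (0.0278), and passed it in DESeq2 (0.0429). LHCA1, at 4004, 4301, 4545 and 4069.9 CPM, was the photosystem I antenna gene nearest to no difference by label, and its groups overlapped. LHCA3 and LHCA4 were lower under the sme1-1 label at 20 °C, with log2 ratios of -0.31 and -0.46, and near it at 4 °C, with 0.13 and -0.04. Summed over the 6 genes, the antenna of photosystem I took 1.18%, 1.02%, 1.27% and 1.13% of the reads.

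The major antenna of photosystem II is a trimer of LHCB1, LHCB2 and LHCB3 proteins, the most abundant membrane proteins of the leaf. Here 5 genes encode LHCB1 and 3 encode LHCB2, and the LHCB1 copies are close in sequence. The stretch of their coding sequence below shows how close, since only reads that hold differing bases can be assigned to 1 copy. It is taken from the RefSeq annotation of TAIR10.1, 60 bases of each gene on its coding strand, and capitals mark bases that differ from LHCB1.3. Gene codes and places are AT1G29920 for LHCB1.1 (chr1:10475269-10475328, minus strand), AT1G29910 for LHCB1.2 (chr1:10472623-10472682, minus), AT1G29930 for LHCB1.3 (chr1:10478635-10478694, plus), AT2G34430 for LHCB1.4 (chr2:14525379-14525438, plus) and AT2G34420 for LHCB1.5 (chr2:14522896-14522955, minus).
LHCB1.1: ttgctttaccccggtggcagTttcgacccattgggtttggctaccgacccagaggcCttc
LHCB1.2: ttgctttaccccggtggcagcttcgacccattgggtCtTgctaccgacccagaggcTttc
LHCB1.3: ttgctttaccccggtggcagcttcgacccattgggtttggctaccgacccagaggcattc
LHCB1.4: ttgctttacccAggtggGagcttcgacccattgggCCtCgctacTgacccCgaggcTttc
LHCB1.5: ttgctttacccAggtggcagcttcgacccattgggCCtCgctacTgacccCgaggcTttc

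The copies differ from LHCB1.3 at 2, 3, 8 and 7 of these 60 bases for LHCB1.1, LHCB1.2, LHCB1.4 and LHCB1.5. Over the 804 coding bases, LHCB1.1 was 96.1% and LHCB1.2 96.4% identical to LHCB1.3. In the transcripts of the 5 LHCB1 genes, LHCB2.1 and LHCB2.2, 10.6% to 28.2% of all 50-base words also occur in another of the 42 genes, and the other 35 genes share none. The deposited counts hold uniquely mapped reads, so reads that fit several of these 7 genes equally well may be missing from their levels. Some of the other 35 genes share words with genes outside the 42, up to 58.8% of the words of PSAG with AT1G55673, which overlaps it on the opposite strand. LHCB1.5, 1 of the 7 genes, shares 100% of its words with other genes, most of all AT2G08665, which also overlaps it on the opposite strand.

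LHCB1.1 was the only one of the 42 genes that was called higher by the genotype label. It was at 5247, 7680.3, 5177 and 8623 CPM, with both libraries labelled sme1-1 above both labelled Col-0. Its log2 difference was 0.64 ± 0.18 (SE; Benjamini-Hochberg adjusted p = 0.00772 in edgeR's quasi-likelihood test). LHCB1.2, on the same stretch of chromosome 1, was at 1527, 1684, 1449 and 2186 CPM, also higher in both. Its log2 difference of 0.37 ± 0.18 did not pass edgeR's quasi-likelihood test (adjusted p = 0.108).

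LHCB1.3 was the most abundant of the 42 genes per length in every library, at 22750.2, 28032, 27181 and 26978 RPKM (reads per kilobase per M reads). Its CPM values were 23751, 29266, 28377 and 28165, and the library labelled Col-0 20 °C was the lowest, with the other 3 near each other. LHCB1.4 and LHCB1.5, neighbours on chromosome 2, ranged from 1235 to 1627 CPM and from 3489 to 4970.0 CPM. LHCB1.4, at 1235, 1304, 1627 and 1599 CPM, had the smallest modelled difference by genotype label among the major antenna genes, 0.03 ± 0.17 on the log2 scale. LHCB1.5 lies wholly within a gene on the other strand, AT2G08665, which is not in the tables, and the counts carry no strand.

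Among the LHCB2 genes, whose proteins are phosphorylated when antenna moves between the photosystems, 1 of 3 passed the test. Over all genes, 17.8% were lower and 24.2% higher. LHCB2.3 was at 2798, 2273, 3466 and 1936 CPM, lower in both libraries labelled sme1-1. Its log2 difference was -0.57 ± 0.18 (SE; Benjamini-Hochberg adjusted p = 0.0198 in edgeR's quasi-likelihood test). LHCB2.1 was at 3502, 3930.5, 3941 and 4133 CPM and LHCB2.2 at 4545, 3846, 4809 and 4027 CPM, and neither passed. LHCB3 ranged from 1497 to 1994 CPM and did not pass.

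Summed over its 9 genes, the major antenna took 4.88%, 5.50%, 5.54% and 5.75% of the reads. The library labelled sme1-1 stood at 1.13 times the Col-0 level at 20 °C and 1.04 times at 4 °C. The second ratio turned to 0.967 with TMM factors and 0.971 with DESeq2 size factors, so its direction depends on the scaling. Among the 6 groups of genes it was the one whose sum was not lower at 20 °C. Of its 9 genes, 5 were above a ratio of 1 at 20 °C and 4 at 4 °C. Of all 17218 genes, 8915 and 9501 were, so these counts are near the background.

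**Figure D3:**
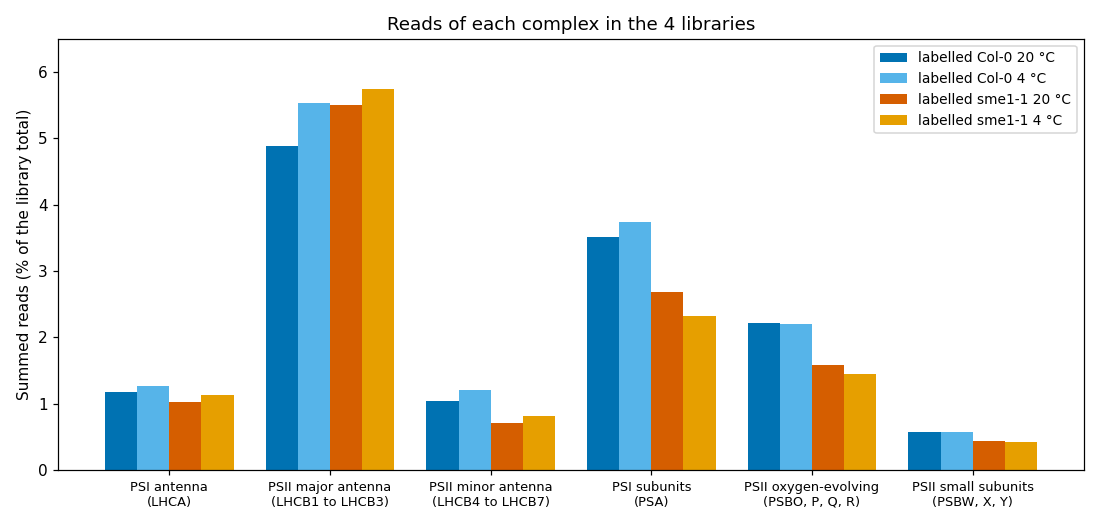
Summed reads of each of the 6 gene groups as a percent of the library total (y axis, from 0), with 1 bar per labelled library and no replicates. The major antenna bar is highest in the library labelled sme1-1 4 °C (5.75%). The photosystem I antenna, the minor antenna and all 3 photosystem subunit groups have both sme1-1 bars below both Col-0 bars.

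The minor antenna proteins LHCB4, LHCB5 and LHCB6 (CP29, CP26 and CP24) are monomers that connect the trimers to the core of photosystem II. Of the 6 genes, 4 were lower by the genotype label and 0 higher, against 17.8% and 24.2% of all genes. LHCB4.3, a weakly expressed LHCB4 copy, was at 31.4, 10.1, 41.0 and 15.5 CPM. Its level in the library labelled sme1-1 was 0.322 of that in Col-0 at 20 °C (0.289 to 0.358) and 0.378 at 4 °C (0.347 to 0.412), and its groups did not overlap. Its log2 difference was -1.52 ± 0.17 (SE; Benjamini-Hochberg adjusted p = 2.5e-06 in edgeR's quasi-likelihood test).

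LHCB4.2 was at 2896, 1714, 3889 and 1793 CPM, with both libraries labelled sme1-1 near each other and below Col-0. Its ratios were 0.592 (0.587 to 0.597) at 20 °C and 0.461 (0.457 to 0.465) at 4 °C, and the log2 difference was -0.94 ± 0.18 (edgeR's quasi-likelihood test, adjusted p = 0.00049). LHCB4.1 followed with a smaller step, at 4027, 3012, 4682 and 3094 CPM (log2 difference -0.51 ± 0.17). LHCB6 was at 1337, 728, 1381 and 949 CPM (log2 difference -0.71 ± 0.17; edgeR's quasi-likelihood test, adjusted p = 0.0034).

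LHCB5 was nearest to no difference, at 2069, 1649.9, 1964 and 2329 CPM, so that the libraries labelled sme1-1 were the lowest and the highest. Reads covered at least 74.24% of its length, the lowest coverage among the 42 genes, while the other 41 were covered over at least 90.11%. LHCB7 (AT1G76570), a rarely expressed relative, was the least abundant of the 42 genes, at 9.50, 5.10, 9.85 and 8.63 RPKM, or between 5.38 and 10.4 CPM. Its low value was in the library labelled sme1-1 20 °C, and its log2 difference of -0.54 ± 0.22 did not pass (edgeR's quasi-likelihood test, adjusted p = 0.0629; 0.0387 with TMM factors). In sum the minor antenna took 1.04%, 0.712%, 1.20% and 0.819% of the reads, or 0.687 of the Col-0 level at 20 °C and 0.684 at 4 °C by label.

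Photosystem I had 12 nuclear subunit genes, of which 8 were lower by the genotype label and 0 higher, against 17.8% and 24.2% of all genes. The stromal subunits PSAD and PSAE form the docking site for ferredoxin. PSAD2 was at 1424, 708, 1654 and 621 CPM, at 0.497 of the Col-0 level at 20 °C (0.490 to 0.504) and 0.376 at 4 °C (0.371 to 0.381) by label. Its log2 difference was -1.21 ± 0.18 (SE; Benjamini-Hochberg adjusted p = 4.2e-05 in edgeR's quasi-likelihood test). Its groups stood well apart and the temperature labels did not: 1.16 and 0.878 were the ratios of 4 °C over 20 °C within the Col-0 and sme1-1 labels.

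The other copy, PSAD1, was at 3499, 2659, 3999.6 and 1856 CPM. Its ratio by genotype label was 0.760 at 20 °C and 0.464 at 4 °C (0.460 to 0.468), and its log2 difference was -0.75 ± 0.19 (edgeR's quasi-likelihood test, adjusted p = 0.00513). The lowest library was the one labelled sme1-1 4 °C. PSAE1 was at 2521, 1755, 2929 and 2292 CPM and was close to the threshold (log2 difference -0.44 ± 0.17; edgeR's quasi-likelihood test, adjusted p = 0.0489). PSAE2, at 503, 451, 590.3 and 459 CPM, did not pass.

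PSAF, which with the lumenal PSAN helps to bind plastocyanin, was at 8173, 6948, 8852 and 5409.5 CPM. Its groups did not overlap, and it lay just inside the threshold (log2 difference -0.47 ± 0.19; edgeR's quasi-likelihood test, adjusted p = 0.0498). PSAN was at 1011, 759, 1023 and 987 CPM and did not pass. A gene that overlaps PSAN on the other strand reached 10.9% of its level, the highest such share among the 16 of the 42 genes that overlap a gene of the tables.

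PSAG and PSAK are small subunits at the edges of the core. PSAG was at 6082, 4695, 6588 and 3973 CPM and PSAK at 961, 528, 1041 and 839 CPM, and both were called lower, with log2 differences of -0.55 ± 0.18 and -0.59 ± 0.18. The lowest PSAG library was labelled sme1-1 4 °C and the lowest PSAK library sme1-1 20 °C, so the sme1-1 libraries differed from each other in opposite ways.

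PSAH, PSAL and PSAO lie where the major antenna can dock on photosystem I. PSAL was at 8095, 6333, 7405 and 3921 CPM and PSAH2 at 1632, 936, 1945 and 1376 CPM, and both were called lower (log2 differences -0.64 ± 0.19 and -0.65 ± 0.17). PSAH1, at 719.9, 544, 789 and 706 CPM, did not pass. PSAO was the photosystem I gene nearest to no difference, with 0.04 ± 0.19, but its values of 560.2, 446, 561 and 748 CPM show that its sme1-1 libraries were the lowest and the highest. Summed, the photosystem I subunit genes took 3.52%, 2.68%, 3.74% and 2.32% of the reads, or 0.761 of the Col-0 level at 20 °C and 0.620 at 4 °C by label.

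On the oxygen-evolving side of photosystem II, 5 of 6 genes were lower by the genotype label and 0 higher. The shares of all genes were 17.8% and 24.2%. PSBQ1 was at 1170.4, 644, 1306 and 752 CPM, with ratios of 0.551 (0.543 to 0.559) at 20 °C and 0.576 (0.569 to 0.584) at 4 °C. Its log2 difference was -0.83 ± 0.17 (SE; Benjamini-Hochberg adjusted p = 0.000827 in edgeR's quasi-likelihood test). PSBQ2, the other gene for the same extrinsic protein, was at 1304, 1120.0, 1458 and 1370.1 CPM. It was the gene nearest to no difference in this group (-0.15 ± 0.17), and its groups overlapped.

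PSBO1 and PSBO2, whose products stabilise the manganese cluster, were at 4382, 3111, 4476 and 2997 CPM and at 1673, 1156, 1843 and 1164 CPM. In both genes the sme1-1 libraries were nearly level with each other and below both Col-0 libraries (log2 differences -0.54 ± 0.17 and -0.60 ± 0.17, both called). PSBP1 was at 8372, 6076, 8145 and 4781 CPM and PSBR at 5151, 3752, 4733 and 3319 CPM, and both were called lower. The 6 genes summed to 2.21%, 1.59%, 2.20% and 1.44% of the reads, or 0.719 at 20 °C and 0.655 at 4 °C of the Col-0 level by label.

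Of the 3 small subunit genes of photosystem II, 1 was called lower and 0 higher, against 17.8% and 24.2% of all genes. With 3 genes, such a count says little. The gene called was PSBY, at 3819, 3026, 3745 and 2338 CPM (log2 difference -0.51 ± 0.18; edgeR's quasi-likelihood test, adjusted p = 0.029). PSBX, at 1073, 703, 1036 and 985 CPM, and PSBW, at 846, 659.9, 918 and 931 CPM, did not pass. PSBW was the nearest to no difference, and its lowest library was labelled sme1-1 20 °C. Together the 3 genes took 0.574%, 0.439%, 0.570% and 0.425% of the reads.

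Where a subunit has several genes, the shares of its copies were compared per length, as a percent of the summed RPKM of the family. LHCB1.1 made up 13.1%, 16.0%, 11.3% and 17.1% of LHCB1, higher in both libraries labelled sme1-1. PSBQ1 made up 50.7%, 39.7%, 50.6% and 38.6% of PSBQ, so that both Col-0 libraries were near an even split and both sme1-1 libraries were tilted to PSBQ2. PSAD2 made up 27.6%, 19.9%, 27.9% and 23.9% of PSAD.

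LHCB2.3 made up 28.4%, 25.1%, 31.1% and 21.3% of LHCB2, and LHCB4.2 42.2%, 36.7%, 45.7% and 37.1% of LHCB4, again with both sme1-1 libraries below both Col-0 libraries. PSAH2 showed the same order with 69.4%, 63.3%, 71.2% and 66.1% of PSAH. The PSBO split hardly moved, with PSBO1 at 73.6%, 74.1%, 72.1% and 73.3%. PSAE1 held 81.3%, 77.2%, 81.2% and 81.3% of PSAE, so that 1 library stood apart from 3 that were level. These shares have no replicates and no test, and those of LHCB1 and LHCB2 carry the limit on shared sequence given above.

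**Figure D4:**
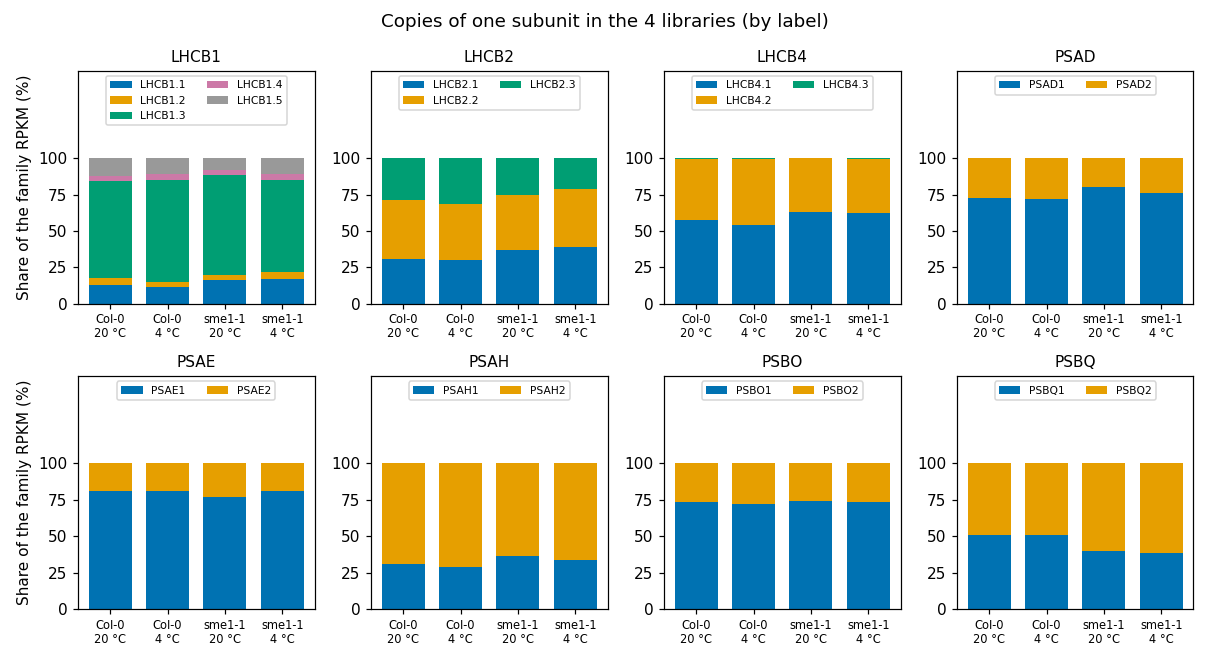
Share of each gene copy in the summed RPKM of its family (y axis, percent, from 0) in the 4 labelled libraries, for the 8 subunits with more than 1 gene; colours mark copies. PSBQ1 is at 50.7% and 50.6% in the Col-0 libraries and at 39.7% and 38.6% in the sme1-1 libraries, while PSBO1 stays between 72.1% and 74.1%.

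By the temperature label, no member of any complex passed edgeR's quasi-likelihood test, and no pair of libraries with the same genotype label differed 2-fold in any of the 42 genes. Among all genes, 0.865% lay past 2-fold above and 0.871% lay past 2-fold below at 4 °C within the Col-0 label, and 3.26% and 2.56% within the sme1-1 label. Median log2 ratios of the 42 genes were 0.11 within Col-0 (-0.03 for all genes) and 0.20 within sme1-1 (0.03 for all genes). LHCB4.2 was the furthest above within the Col-0 label, with a log2 ratio of 0.43. Within the sme1-1 label the range was wider, from -0.69 for PSAL to 0.76 for LHCB7, with PSAO at 0.75 and PSAK at 0.67. The 9 genes that were higher in both 4 °C libraries than in both 20 °C libraries were LHCA3, LHCA4, LHCA5, LHCB1.4, LHCB1.5, LHCB2.1, PSAO, PSBQ2 and PSBW, and 0 of the minor antenna genes were among them.

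Since SME1 moved with the temperature label and the cold genes with the genotype label, the diagonal pairs were also read. Each shares its libraries with the pairs above. The library labelled sme1-1 4 °C over that labelled Col-0 20 °C had 4 of the 42 genes at least 2-fold lower and 0 higher, where 9.84% and 12.0% of all genes were. The library labelled sme1-1 20 °C over Col-0 4 °C had 6 at least 2-fold lower and 0 higher, where 6.89% and 10.4% of all genes were. The median log2 ratio of the 42 genes was -0.16 in the first pair (0.07 for all genes) and -0.45 in the second (0.06 for all genes).

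Genes that work beside the photosystems were read the same way. Of 13 electron transport and ATP synthase genes, 6 were lower by the genotype label and 0 higher, against 17.8% and 24.2% of all genes. The 6 were PETE1, PETE2, FD1, LFNR1, PGRL1A and ATPG. FD1, a leaf ferredoxin, was the furthest apart, at 672, 252, 757 and 378 CPM, while the major leaf ferredoxin FD2 was at 3112, 3066, 2571 and 2871 CPM. LFNR1, a ferredoxin-NADP reductase, was at 1341, 878, 1518 and 757 CPM. PETE2, the main plastocyanin, was at 3042, 1770.4, 3229 and 1959.8 CPM, with both libraries labelled sme1-1 below both labelled Col-0.

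Of 13 chlorophyll synthesis genes, 3 were higher (PORA, PORB and CAO) and 1 lower (CHLM), where 24.2% of all genes were higher and 17.8% lower, so the count of higher genes is near the background. PORB, a protochlorophyllide oxidoreductase, was at 85.5, 432, 156 and 549 CPM, with a log2 difference of 2.08 ± 0.18 (edgeR's quasi-likelihood test, adjusted p = 1.76e-07). PORA was rare, at 0.538, 2.76, 2.16 and 5.98 CPM, and was also called higher by the temperature label in edgeR, but not in DESeq2. PORC, the third gene of that enzyme, was at 263, 238, 275 and 223 CPM and did not pass. CAO, which makes the chlorophyll b that antenna proteins bind, was at 289, 378, 288 and 438 CPM. PORB and CAO were higher in both libraries labelled sme1-1, which among the antenna genes held for LHCB1.1 and LHCB1.2 only.

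Of 4 chlorophyll breakdown genes, NYC1, a chlorophyll b reductase, was called higher, at 45.7, 72.3, 57.1 and 79.4 CPM, and 0 were lower. A count of 1 in 4 is near the 24.2% of all genes that were higher. Of 7 genes for the insertion and phosphorylation of antenna proteins, 3 were lower and 0 higher, against 17.8% and 24.2% of all genes. The 3 were CPSRP54 of the chloroplast signal recognition particle, at 201, 161, 225 and 127 CPM, the antenna kinase STN7, at 158, 108, 164 and 110.3 CPM, and the core kinase STN8, at 93.3, 59.4, 106 and 80.6 CPM.

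Of 4 regulators, 2 were lower and 0 higher, against 17.8% and 24.2% of all genes. GLK1, an activator of photosystem and antenna genes, was at 288, 144, 282 and 170.0 CPM, and its paralog GLK2 was at 165, 198, 136 and 162 CPM and did not pass. HY5, a light-signalling transcription factor, was at 37.6, 10.3, 35.1 and 6.41 CPM, with a log2 difference of -2.15 ± 0.19 (edgeR's quasi-likelihood test, adjusted p = 1.89e-07). The libraries in which GLK1 and HY5 were low were those in which 28 of the 42 genes were low. Whether the regulators play a part in that was not tested.

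The 250 bases upstream of each gene's annotated start were searched on both strands for 5 short motifs in TAIR10.1. The deposited tables hold no coordinates, and the authors' build is TAIR10 per the submitters' processing notes. The windows of LHCB1.1, LHCB1.3, LHCB4.3 and PSBQ2 are shown because these genes are the called higher copy, the most abundant copy, the weakly expressed and strongly lower copy, and the copy nearest to no difference in its pair. Capitals mark the motifs found, on either strand. The places are chr1:10475970-10476219 (minus strand), chr1:10477635-10477884 (plus), chr2:16745378-16745627 (plus) and chr4:2673244-2673493 (minus).
LHCB1.1: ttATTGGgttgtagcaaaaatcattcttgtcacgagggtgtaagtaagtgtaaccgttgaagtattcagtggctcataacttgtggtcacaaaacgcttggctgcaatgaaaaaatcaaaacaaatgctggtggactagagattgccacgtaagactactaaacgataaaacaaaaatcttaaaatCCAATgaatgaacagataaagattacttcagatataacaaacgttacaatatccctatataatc
LHCB1.3: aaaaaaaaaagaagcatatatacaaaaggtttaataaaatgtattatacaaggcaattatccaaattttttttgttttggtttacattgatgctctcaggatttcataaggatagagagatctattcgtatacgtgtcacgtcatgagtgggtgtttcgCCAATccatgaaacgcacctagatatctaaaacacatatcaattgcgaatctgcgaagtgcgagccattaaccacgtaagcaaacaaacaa
LHCB4.3: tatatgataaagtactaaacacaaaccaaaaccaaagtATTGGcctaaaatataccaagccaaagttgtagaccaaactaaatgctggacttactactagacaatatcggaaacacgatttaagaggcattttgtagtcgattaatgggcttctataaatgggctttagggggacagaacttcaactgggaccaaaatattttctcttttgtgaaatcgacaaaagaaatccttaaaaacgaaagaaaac
PSBQ2: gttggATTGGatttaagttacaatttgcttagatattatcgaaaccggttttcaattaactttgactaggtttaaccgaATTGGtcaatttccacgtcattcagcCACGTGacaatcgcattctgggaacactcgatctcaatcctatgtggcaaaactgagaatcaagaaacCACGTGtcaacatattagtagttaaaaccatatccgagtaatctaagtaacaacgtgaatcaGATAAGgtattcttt

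CCAAT, bound by NF-Y factors, lay in the windows of 28 of the 42 genes (66.7%), where 46.0% of the windows of 27443 nuclear protein-coding genes held it. Light-harvesting genes held it in 19 of 21 windows (90.5%), among them all 9 major antenna genes, and photosystem subunit genes in 9 of 21 (42.9%). CACGTG, the G-box that HY5 and other factors bind, lay in 9 of 42 windows (21.4%, against 6.49%). These were the windows of LHCA4, LHCB2.3, LHCB4.1, LHCB6, LHCB7, PSAE2, PSAH2, PSBQ1 and PSBQ2.

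GATAAG, the I-box, lay in 9 of 42 windows (21.4%, against 12.3%). CCGAC, the core bound by CBF factors of the cold response, lay in 3 (7.14%, against 12.0%), those of LHCA4, LHCA6 and LHCB4.1. AAATATCT, the evening element, lay in 1 (2.38%, against 4.79%), that of LHCA5. Among the genes with CACGTG, LHCB2.3, LHCB4.1, LHCB6, PSAH2 and PSBQ1 were called lower by the genotype label. LHCA4, LHCB7, PSAE2 and PSBQ2, which also held it, were not called. Whether the motifs bear on the levels was not tested. No motif contains another, and a match is a description of the letters only.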

How the data were processed

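Each of the 4 libraries had 1 table of genes. The deposited count tallies uniquely mapped reads for each gene, per the file headers. The deposited RPKM was recomputed from count, length and file total (largest relative deviation 4.05e-14), and the deposited coverage is the percent of gene length covered by reads. The genome build is TAIR10 per the submitters' processing notes, and no source used here names the aligner or counter. Genes absent from a table were set to 0 reads.

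Counts were scaled to the file total (CPM), and 3 counts, the limit that a count of 0 allows, equal 0.0636 to 0.0672 CPM. The 17218 genes that averaged 1 CPM or more were fitted with genotype label plus temperature label in edgeR 4.0.16 (quasi-likelihood test, common dispersion 0.0213), with Benjamini-Hochberg adjustment at 0.05. Ratios of 2 libraries carry exact conditional 95% intervals. PCR reads are not independent molecules, so intervals and floors cover counting error only. The labels do not say how many plants a library holds, and p-values measure only the spread between these libraries. Alternatives were TMM factors, DESeq2 1.42.0, no filter, a 1.5-fold threshold, copies of 1 subunit summed, and, added after seeing the data, leaving out both libraries that SME1 puts in doubt (sme1-1 at 20 °C, Col-0 at 4 °C).

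The 42 genes and the other gene lists were chosen with earlier results of these data known. Named in each complex are genes at least 2-fold apart in a pair, the gene nearest to no difference and genes below 10 CPM, with further members given for completeness. All 42 codes matched the RefSeq annotation of TAIR10.1, from which sequences and places were read. The model was tested on simulated data with effects of the genotype label only and the common dispersion of these libraries. That test cannot show how the model fares with wrong labels or departures from additivity.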

Additional observations from a re-analysis of the deposited data

Results flagged for a closer look

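In some of the 42 genes a ratio had opposite directions in the 2 label groups where it was read, with each counting interval leaving out 1. None of these differences was tested, since each ratio is 1 library against 1, and many are small. How many of all genes did the same was not counted, so the counts below have no background share. The log2 genotype-label ratio at 4 °C minus that at 20 °C had a median of 0.06 over the 42 genes. It was also 0.06 over the 17215 genes that passed the filter with reads in all libraries.

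The log2 ratio of sme1-1 over Col-0 was below 0 at 20 °C and above 0 at 4 °C, or the reverse, in 9 genes. PSAO, a photosystem I subunit at the antenna docking side, stood furthest apart, with -0.33 at 20 °C and 0.41 at 4 °C, a difference of 0.74. LHCB5 followed with -0.33 and 0.25, a difference of 0.57. The same kind of difference, 4 °C minus 20 °C, was 0.44 for LHCA3, 0.41 for LHCB1.5, 0.38 for PSBW and 0.31 for LHCA5. It was -0.31 for LHCB1.3, -0.26 for LHCA1 and -0.10 for LHCB1.4.

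The log2 ratio of 4 °C over 20 °C had opposite directions within the labels in 12 genes. PSAD1, of the ferredoxin docking site, stood furthest apart, with 0.19 within Col-0 and -0.52 within sme1-1, a difference of -0.71. The same difference, sme1-1 minus Col-0, was -0.54 for LHCB2.3, -0.48 for PSAF, -0.40 for PSAD2, -0.36 for PSAG, -0.31 for LHCB1.3, -0.26 for LHCA1 and -0.08 for PSBO1. It was 0.57 for LHCB5, 0.54 for PSBX, 0.45 for LHCB1.2 and 0.19 for LHCB1.1. Dixon's check for a sample far from the others could not be run with 1 library per group.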

How the results depend on the processing

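No paired analysis was possible because each group holds 1 library, so no replicate number is shared in a way that a block could use, and leaving out a library leaves the additive model no residual degree of freedom. By genotype label, 20 of the 42 genes were called lower, 22 with TMM factors (LHCA2 and LHCB7 added) and 21 in DESeq2 (LHCA2 added), and 1 was higher in each. Of the 17218 genes, 3071 were lower and 4161 higher, 3491 and 3533 with TMM factors, and 2275 and 3225 in DESeq2. All genes called lower by the temperature label numbered 195, 103 with TMM factors and 120 in DESeq2. With a 1.5-fold threshold, 10 genes were lower by genotype label at 20 °C, 14 lower and 2 higher at 4 °C, and 4 higher and 1 lower by temperature label within sme1-1. Of the 17218 genes, 2907 were lower at 20 °C, 3016 lower and 4188 higher at 4 °C, and 1811 higher and 1641 lower within sme1-1, so the 4 genes there are near the background. The same threshold gave 12 lower and 1 higher for sme1-1 4 °C over Col-0 20 °C and 14 lower for sme1-1 20 °C over Col-0 4 °C, where 3465 lower and 4187 higher, and 2764 lower, of all genes were. With copies of a subunit summed, 1 unit at 20 °C and 2 at 4 °C were 2-fold lower by genotype label. In those diagonal pairs, 2 and 1 units were. LHCB4.3 made up 0.486%, 0.230%, 0.513% and 0.341% of LHCB4 by RPKM, so a sum hardly reflects that copy. Copies were not summed over all genes, so no background share stands beside these counts. Leaving out sme1-1 at 20 °C and Col-0 at 4 °C (by label) leaves only the diagonal pair of sme1-1 4 °C over Col-0 20 °C. Its 4 genes 2-fold lower and 0 higher are the counts given above, so this is no further check. Of all genes, 9.84% were lower and 12.0% higher there, so 4 of 42 is near the background.

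Under TMM and DESeq2 factors respectively, medians of the 42 genes (log2) were -0.42 and -0.42 at 20 °C, -0.44 and -0.43 at 4 °C, 0.14 and 0.13 within Col-0, 0.16 and 0.17 within sme1-1, -0.23 and -0.22 for sme1-1 4 °C over Col-0 20 °C, and -0.53 and -0.52 for the other diagonal. Summed ratios by genotype label at 20 °C were 0.868 and 0.867 for all 42 genes, 0.841 and 0.840 for the photosystem I antenna, 1.10 and 1.10 for the major antenna, 0.669 and 0.668 for the minor antenna, 0.741 and 0.740 for photosystem I subunits, 0.701 and 0.700 for the oxygen-evolving side, and 0.745 and 0.744 for small subunits. At 4 °C they were, in the same order, 0.762 and 0.766, 0.829 and 0.832, 0.967 and 0.971 (a reversed direction), 0.637 and 0.640, 0.577 and 0.580, 0.610 and 0.612, and 0.695 and 0.698. These factors rescale whole libraries, which moves every ratio of a pair alike. For the other moves the cause was not tested.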

Other observations

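The plastid genome encodes the reaction centre proteins that the 42 nuclear genes surround, and 7 of its photosystem gene codes were in the tables. By the genotype label 1 of the 7 was called lower in edgeR's quasi-likelihood test and 0 in DESeq2, and 0 were higher. A count of 1 in 7 is near the 17.8% of all genes called lower in edgeR. The code called lower, ATCG00280, was at 401, 386, 643 and 316 CPM, in the library order used above. ATCG00340 was at 43.5, 58.8, 47.8 and 15.5 CPM and ATCG00350 at 38.8, 61.0, 42.1 and 23.0 CPM, each highest in the library labelled sme1-1 20 °C and lowest in that labelled sme1-1 4 °C. Most nuclear photosystem I subunit genes had both of these libraries below both labelled Col-0. All 7 codes were read far less than LHCB1.3, and ATCG01060 was lowest, at 0.919, 0.778, 1.10 and 1.56 CPM. How far these counts reflect plastid mRNA was not tested.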
